A study of Mus musculus with 6 samples.

Results

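The genes described are 25 integrin subunit genes and 10 laminin chain genes of the mouse, taken from a fixed list of symbols and read as 35 of the 43629 genes listed in the count files. Integrins are surface receptors made of an α and a β subunit, and laminins are basement membrane proteins made of an α, a β and a γ chain. The study asked what happens to transcripts of embryonic heart muscle cells when DNMT1, the maintenance DNA methyltransferase, is reduced. Ventricles of CD-1 mouse embryos of day 13.5 were pooled by litter, digested with papain, enriched for cardiomyocytes by preplating and cultured for 48 h on gelatin or fibronectin, both of which are themselves integrin ligands. Cells of 3 cultures were transfected with 12 nM negative siRNA, and cells of 3 other cultures with a pool of 4 siRNAs against Dnmt1 at 12 nM. After 72 h, cells positive for VCAM1 were taken by magnetic sorting, and their polyadenylated RNA was sequenced. All 6 cultures share strain, stage, lipid transfection and sort, and differ by siRNA. For the second group, titles name DNMT1 although the treatment label reads DNMT3a.

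In the heart, cardiomyocytes are surrounded by a basement membrane that holds laminin networks. A laminin trimer joins 1 α, 1 β and 1 γ chain, and the α chain carries most of the sites that receptors bind. Integrin α3, α6 and α7 with β1, and α6 with β4, bind laminins. Integrin α1, α2, α10 and α11 with β1 bind collagens, whereas α5, α8, αv and αIIb, with their β partners, bind proteins with an RGD sequence such as fibronectin and vitronectin. Integrin α4 and α9 bind other sites in fibronectin, tenascin and, for α4β1, VCAM1. The αE, αL, αM and αX subunits pair with β7 or β2 on leukocytes. At the cell surface the β1 subunit is shared by many of these receptors, and the vertebrate α5β1 pair is the classical fibronectin receptor.

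Dnmt1 had 3446, 2760 and 2878 normalized counts in the negative siRNA cultures and 772, 786 and 666 in the DNMT1 siRNA cultures (log2 fold change -2.03 ± 0.11 SE, edgeR adjusted p = 0.000192), while Dnmt3a was at 5453 ± 510 and 6425 ± 73.9 (SD, n = 3 each; adjusted p = 0.0919). The transcript that was low was thus the one named in the titles. A normalized count is a read count scaled to the geometric mean of the 6 effective library sizes, and is followed here only within a gene. Levels of different genes were compared as RPKM, reads per kilobase of exon scaled to the effective library size. The negative siRNA libraries held 27852412 to 35896018 reads on genes and the DNMT1 siRNA libraries 13739561 to 16186310, and reads outside exons were 14.6% to 17.5% and 24.4% to 31.95%. Reads that fit more than 1 gene, left out as ambiguous, were 3.58% to 3.65% and 6.02% to 6.35%. None of these differences can be told apart from the treatment. Markers of cardiomyocytes summed to 402 to 512 RPKM in negative siRNA and 707 to 866 in DNMT1 siRNA libraries, and 6 of 8 were called higher. Fibroblast markers, led by Col1a1, summed to 4601 to 7000 and 3478 to 3689 RPKM, with 3 of 8 called lower. In libraries labelled cardiomyocyte these sums were above those of the cardiomyocyte markers in both groups. Sums over different genes do not measure shares of cells, and the paper cites earlier flow cytometry in which most sorted cells were cardiomyocytes. Smooth muscle markers summed to 2378 to 3616 and 2019 to 2110 RPKM, with 1 of 6 called lower (Pdgfrb). Endothelial markers were at 14.1 to 24.0 and 22.2 to 26.2 RPKM, with 2 of 8 called higher (Kdr and Emcn). Tek, another of the 8, went the other way. It was lower in all DNMT1 siRNA cultures but not called (log2 fold change -0.35 ± 0.09 SE, edgeR adjusted p = 0.0373). Epicardial markers were at 525 to 609 and 593 to 622 RPKM. In such bulk libraries, fewer cells of a type and less RNA per cell cannot be told apart.

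The 5′ flanking sequences of Itgb6, Itga10 and Itga5, the integrin genes on which the results turn, are shown because CpG dinucleotides, in capitals, are the sites that DNMT1 methylates. Each is the 250 bases before the RefSeq transcription start, 5′ to 3′ on the strand of the gene, in GRCm38.p6. The Itgb6 sequence is chr2:60722604-60722853 on the minus strand with 11 CpG, the Itga10 sequence is chr3:96645334-96645583 on the plus strand with 2 CpG, and the Itga5 sequence is chr15:103366792-103367041 on the minus strand with 11 CpG.
Itgb6: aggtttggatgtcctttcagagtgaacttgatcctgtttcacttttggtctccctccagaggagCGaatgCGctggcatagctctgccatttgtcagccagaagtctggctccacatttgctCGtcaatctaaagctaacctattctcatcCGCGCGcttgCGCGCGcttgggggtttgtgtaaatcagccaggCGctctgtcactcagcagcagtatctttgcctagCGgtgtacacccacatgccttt
Itga10: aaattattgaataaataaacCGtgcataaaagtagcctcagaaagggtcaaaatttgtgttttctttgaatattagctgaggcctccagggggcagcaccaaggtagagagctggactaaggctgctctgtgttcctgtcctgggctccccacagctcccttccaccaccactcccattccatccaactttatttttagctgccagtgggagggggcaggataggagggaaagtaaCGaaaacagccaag
Itga5: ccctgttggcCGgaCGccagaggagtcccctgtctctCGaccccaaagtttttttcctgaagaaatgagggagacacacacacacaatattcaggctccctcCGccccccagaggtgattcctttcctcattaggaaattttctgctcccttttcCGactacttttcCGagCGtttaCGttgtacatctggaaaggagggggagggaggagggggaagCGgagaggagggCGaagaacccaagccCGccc
Thus Itgb6, which rose, and Itga5, which fell, had equal numbers of CpG in this window, and the window of Itga10, which rose, had fewer. A RefSeq promoter of 300 bases, 250 before and 50 after the start, was found for 23 of the 35 genes, and the outermost of each gene was taken. The number of CpG in it ranged from 1 in Lama2 to 27 in Itgb1, with a median of 12. The median was 7 over all 32851 promoters of 27025 genes, where a gene can have several, so the 2 sets are not alike. The motif GGGCGG or its complement, searched on both strands, was in 11 of the 23 and in 35.7% of all promoters. Methylation at these sites was not measured in the counts used here.

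Of the 35 genes, 33 passed the filter on low counts, and the fit over all 15470 tested genes called 3 of them higher and 1 lower with DNMT1 siRNA (false discovery rate, FDR, below 0.05 and fold change above 1.5). Itga10, Itgb6 and Lamc3 rose and Itga5 fell. That is 9.09% higher and 3.03% lower, beside 4.26% higher and 2.23% lower among all tested genes. Without the limit on fold change, 5 genes passed higher and 2 lower (15.2% and 6.06%, beside 6.81% and 5.65% of all genes), which adds Itga3, Lamc1 and Itgb5. All 3 DNMT1 siRNA cultures lay above all negative siRNA cultures in 14 of the 33 genes and below in 5, beside 18.3% and 17.7% of all tested genes. The median log2 fold change of the 33 genes was 0.11, against -0.0049 in all genes, and 22 were positive. Itga2, Itgb6, Itgae and Lama3 passed the filter through the DNMT1 siRNA cultures and Itgal, Itgam and Itgb2 through the negative siRNA cultures, so these counts and medians are descriptions. With 10 counts required in every culture, 27 genes were left and the counts of calls were again 3 and 1.

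**Figure D1:**
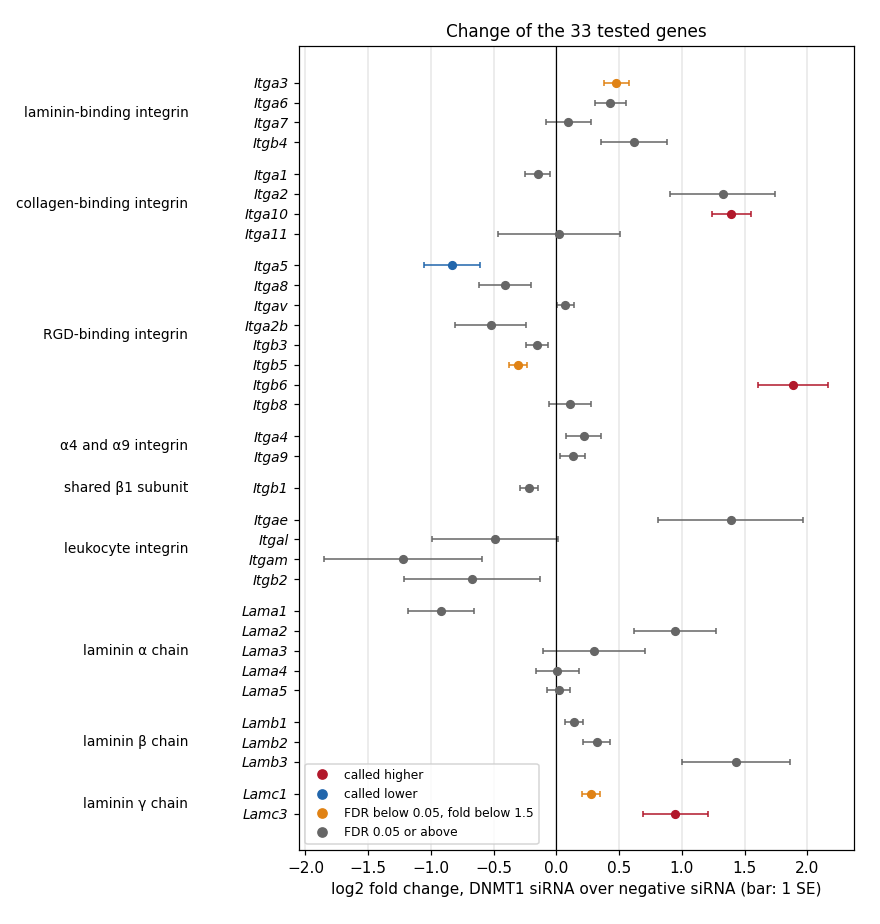
Log2 fold change, DNMT1 siRNA over negative siRNA (x axis, bars 1 SE), of the 33 tested genes grouped by ligand or chain (y axis). Itgb6 lies farthest right at 1.89, Itga5 is the gene called lower at -0.83, and 29 genes are not called.

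Among laminin-binding integrins, Itga3 was the main transcript. Integrin α3 pairs with β1 and binds laminins that contain the α5 chain. Itga3 had 9346, 9193 and 11677 normalized counts in negative siRNA and 14309, 13661 and 14055 in DNMT1 siRNA cultures. No culture of one group reached the other, and the 3 DNMT1 siRNA cultures were close together. The log2 fold change was 0.48 ± 0.10 SE (edgeR quasi-likelihood test with Benjamini-Hochberg adjustment, adjusted p = 0.0209), under the fold limit, so that Itga3 rose by FDR but was not called. Its level was 81.2 ± 11.2 RPKM in negative siRNA and 113 ± 2.64 RPKM in DNMT1 siRNA cultures (SD, n = 3), the highest mean of the 17 α subunits in both. Leaving out any 1 DNMT1 siRNA culture gave adjusted p values of 0.0912 to 0.101.

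Itga6, whose product pairs with β1 or β4, had 1179, 1084 and 851 normalized counts in negative siRNA and 1352, 1321 and 1526 in DNMT1 siRNA cultures. The groups did not overlap, but the log2 fold change of 0.43 ± 0.12 SE did not pass (adjusted p = 0.0574). Itga7 encodes the α subunit that becomes prominent on mature muscle cells. It had 2679, 4748 and 3483 normalized counts in negative siRNA and 3933, 3912 and 3811 in DNMT1 siRNA cultures. The wide negative siRNA values enclosed all DNMT1 siRNA values, and the log2 fold change was 0.10 ± 0.18 SE (adjusted p = 0.756). Itgb4, the β partner of α6 in hemidesmosomes of epithelia, had 80.5, 144 and 151 normalized counts in negative siRNA and 158, 175 and 242 in DNMT1 siRNA cultures, without overlap (log2 fold change 0.62 ± 0.26 SE, adjusted p = 0.163). An antisense gene, B230344G16Rik, shares 7.66% of its exon length, and the strand setting of the counting is not given in the sources used here. Genes on the opposite strand also share 8.04% of the exon length of Itga4, 5.9% of that of Itgav and 5.05% of that of Itga8. All 4 log2 fold changes of this class were positive, with a median of 0.45, and none was called.

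Itga10 was the collagen-binding integrin gene that rose. Integrin α10β1 is a collagen receptor best known from cartilage. Itga10 (chromosome 3, 96645584 to 96664519, plus strand, GRCm38) had 111, 166 and 128 normalized counts in negative siRNA and 353, 366 and 345 in DNMT1 siRNA cultures. The lowest DNMT1 siRNA culture was above the highest negative siRNA culture by more than the whole range of the negative siRNA group. The log2 fold change was 1.39 ± 0.16 SE (edgeR adjusted p = 0.00206), and the level went from 1.20 ± 0.25 to 3.15 ± 0.093 RPKM (SD, n = 3). The call was kept in all 6 fits without 1 culture, with adjusted p up to 0.0198. In the newer annotation used here, 33.5% of its exon length is shared with a gene on the same strand, Gm42957, that the count files do not list.

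The other collagen-binding subunits were not called. Itga1, the subunit of smooth muscle and mesenchymal cells, had 1513, 1853 and 1691 normalized counts in negative siRNA and 1576, 1364 and 1626 in DNMT1 siRNA cultures, which overlapped (log2 fold change -0.15 ± 0.10 SE, adjusted p = 0.367). Itga11, the α subunit of a fibroblast collagen receptor, had 543, 181 and 1037 normalized counts in negative siRNA and 638, 570 and 572 in DNMT1 siRNA cultures. Its negative siRNA cultures spanned the widest range per length of any α subunit above 1 RPKM relative to their mean, 1.63 to 9.30 RPKM, around 5.12 to 5.73 RPKM in DNMT1 siRNA cultures, and the log2 fold change was 0.02 ± 0.49 SE (adjusted p = 0.983). Itga2, the platelet and epithelial collagen receptor subunit, was near the lower limit of counting, with 5.25, 11.03 and 9.33 normalized counts in negative siRNA and 17.4, 16.0 and 31.1 in DNMT1 siRNA cultures. A count of 3 reads corresponds to 1.75 to 2.33 normalized counts in the negative siRNA and 4.02 to 4.91 in the DNMT1 siRNA libraries. The groups did not overlap for Itga2, but the log2 fold change of 1.32 ± 0.42 SE did not pass (adjusted p = 0.0753).

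Itga5 was the integrin gene called lower. Integrin α5 pairs only with β1, and the pair binds fibronectin, one of the coatings of these cultures. Itga5 (chromosome 15, 103344286 to 103366763, minus strand) had 5059, 10420 and 6992 normalized counts in negative siRNA and 4299, 4211 and 4112 in DNMT1 siRNA cultures. The DNMT1 siRNA cultures lay close together just under the lowest negative siRNA culture, whereas the negative siRNA cultures were spread around a mean of 7491 ± 2715 (SD, n = 3). The log2 fold change was -0.83 ± 0.22 SE (edgeR adjusted p = 0.0443). The call was lost in 5 of the 6 fits without 1 culture, over which the adjusted p ranged up to 0.159. In 1 of these 5, the fit without negative siRNA replicate 2, it was lost on the fold limit (log2 fold change -0.52, edgeR adjusted p = 0.0167). Summed fibroblast markers were also highest in that culture, at 7000 RPKM beside 4601 and 4820 RPKM in the other negative siRNA cultures. So were summed smooth muscle markers, at 3616 beside 2656 and 2378 RPKM, and endothelial markers, at 24.0 beside 14.1 and 14.5 RPKM. Cardiomyocyte markers were highest there too, at 512 beside 402 and 406 RPKM, whereas epicardial markers were lowest, at 525 beside 590 and 609 RPKM. The part of these markers' cells in the result was not tested.

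Itga8 and Itgav were the other abundant RGD-binding α subunits. Integrin α8, a receptor of mesenchymal and smooth muscle cells, had 4765, 9332 and 6517 normalized counts in negative siRNA and 5301, 4778 and 5454 in DNMT1 siRNA cultures, with negative siRNA replicate 2 again highest and the groups overlapping (Itga8 log2 fold change -0.41 ± 0.21 SE, adjusted p = 0.234). Itgav encodes αv, the partner of β1, β3, β5, β6 and β8. It varied least of the α subunits among negative siRNA cultures, with 14696, 14486 and 15224 normalized counts in negative siRNA and 15316, 15256 and 16070 in DNMT1 siRNA cultures. These groups did not overlap, yet they differed by a log2 fold change of only 0.07 ± 0.07 SE (adjusted p = 0.509). Itga2b, the platelet αIIb subunit, had 54.3, 95.8 and 56.0 normalized counts in negative siRNA and 40.2, 52.5 and 50.7 in DNMT1 siRNA cultures, all lower (log2 fold change -0.52 ± 0.28 SE, adjusted p = 0.257). Markers of megakaryocytes and platelets summed to 0.98 to 1.42 RPKM in negative siRNA and 0.65 to 1.26 RPKM in DNMT1 siRNA libraries, and 5 of the 6 were too low to be tested.

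Itgb6 had the largest positive log2 fold change of the 33 tested genes. Integrin αvβ6 is an epithelial receptor that binds the latent TGF-β complex. Itgb6 (chromosome 2, 60598292 to 60722643, minus strand) had 9.34, 11.03 and 8.55 normalized counts in negative siRNA and 41.6, 33.5 and 32.7 in DNMT1 siRNA cultures. All DNMT1 siRNA cultures were higher, and the lowest lay well above the highest negative siRNA culture. The log2 fold change was 1.89 ± 0.28 SE (edgeR adjusted p = 0.00546), and the call was kept in all 6 fits without 1 culture (adjusted p up to 0.0396). Itgb6 met the low-count limit in 1 negative siRNA and 3 DNMT1 siRNA cultures, so it entered these fits through the group where it was high. With 10 counts required in every culture it was still called (log2 fold change 1.89 ± 0.25 SE, edgeR adjusted p = 0.00315). It remained a rare transcript, at 0.0624 ± 0.0082 and 0.233 ± 0.032 RPKM (SD, n = 3). The higher share of reads outside exons in the DNMT1 siRNA libraries moves with it, and its part in the result was not tested.

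Itgb5, Itgb3 and Itgb8, the other RGD-binding partners of αv, did not pass higher. Itgb5, a vitronectin receptor subunit, had 10695, 11303 and 11983 normalized counts in negative siRNA and 9227, 8800 and 9447 in DNMT1 siRNA cultures, without overlap. It fell by 0.31 ± 0.07 SE on the log2 scale (adjusted p = 0.0301), under the fold limit, and its level went from 147 ± 8.35 to 119 ± 4.26 RPKM (SD, n = 3). Itgb3, the β subunit of αvβ3 and of the platelet fibrinogen receptor, had 734, 838 and 862 normalized counts in negative siRNA and 697, 758 and 725 in DNMT1 siRNA cultures (log2 fold change -0.16 ± 0.09 SE, adjusted p = 0.270). Itgb8, which like β6 binds latent TGF-β, had 823, 537 and 829 normalized counts in negative siRNA and 719, 780 and 862 in DNMT1 siRNA cultures, which overlapped (log2 fold change 0.11 ± 0.17 SE, adjusted p = 0.706). Over the 8 RGD-binding genes, 3 log2 fold changes were positive and 5 negative, with a median of -0.23.

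**Figure D2:**
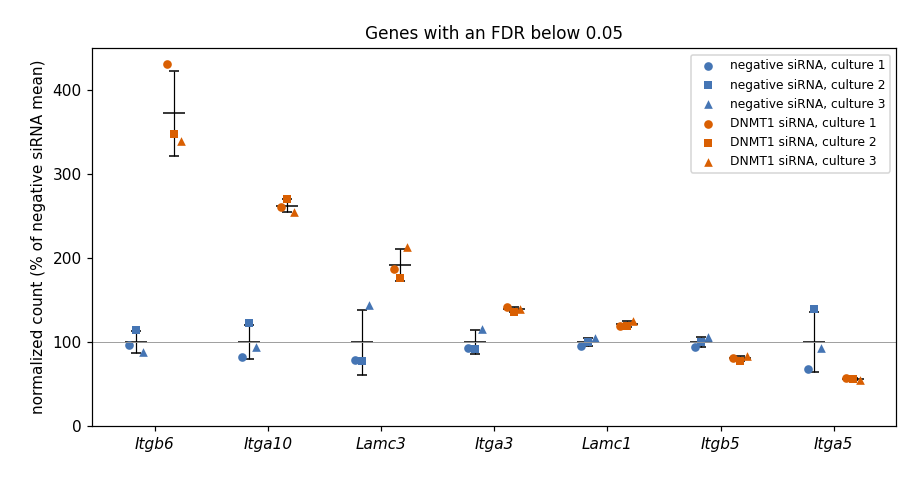
Normalized counts, as percent of the negative siRNA mean (y axis), of the 7 listed genes with an FDR below 0.05 (x axis). Points are cultures, black dashes with bars are means with 1 SD (n = 3). The 3 DNMT1 siRNA cultures of each gene lie outside the range of the negative siRNA cultures, and negative siRNA replicate 2 stands apart in Itga5.

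Itgb1, the common β subunit, was the most abundant transcript of the list. It had 47377, 47938 and 48454 normalized counts in negative siRNA and 41330, 39448 and 42776 in DNMT1 siRNA cultures. Every DNMT1 siRNA culture was lower, but the log2 fold change of -0.22 ± 0.07 SE did not pass (adjusted p = 0.0808). Its level was 541 ± 6.08 and 465 ± 18.8 RPKM (SD, n = 3), or 77.5% and 78.2% of the RPKM of the 8 β subunits. Itga4 and Itga9 were not called either. Itga4 had 4719, 3454 and 5123 normalized counts in negative siRNA and 4763, 5033 and 5669 in DNMT1 siRNA cultures (log2 fold change 0.22 ± 0.14 SE, adjusted p = 0.345), and Itga9 had 1244, 1599 and 1452, against 1669, 1468 and 1557 (log2 fold change 0.13 ± 0.10 SE, adjusted p = 0.441). Vcam1, the ligand of α4β1 and the antigen of the sort, was at 5780, 5962 and 7595 normalized counts in negative siRNA and 5502, 5291 and 5374 in DNMT1 siRNA cultures (log2 fold change -0.26, adjusted p = 0.148).

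Leukocyte integrins were among the lowest transcripts of the list. Itgal, Itgam and Itgb2, which make the receptors LFA-1 and Mac-1, had at most 31.0, 52.4 and 22.9 normalized counts in any culture, and their log2 fold changes were -0.49 ± 0.50, -1.22 ± 0.63 and -0.67 ± 0.54 (SE), none of which passed. Itgae, the αE subunit of intraepithelial T cells, had 4.67, 1.38 and 9.33 normalized counts in negative siRNA and 10.7, 13.1 and 16.4 in DNMT1 siRNA cultures, and did not pass (log2 fold change 1.39 ± 0.58 SE, adjusted p = 0.155). The dendritic cell subunit Itgax, at 1.56 to 5.51 and 5.36 to 17.5 normalized counts, and the lymphocyte subunit Itgb7, at 3.89 to 8.27 and 2.68 to 6.54, were not tested. Macrophage markers summed to 9.19 to 26.4 RPKM in negative siRNA and 7.84 to 11.4 RPKM in DNMT1 siRNA libraries, and 1 of 7 tested, Lyz2, was called lower (log2 fold change -1.23 ± 0.33 SE, adjusted p = 0.0476).

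**Figure D3:**
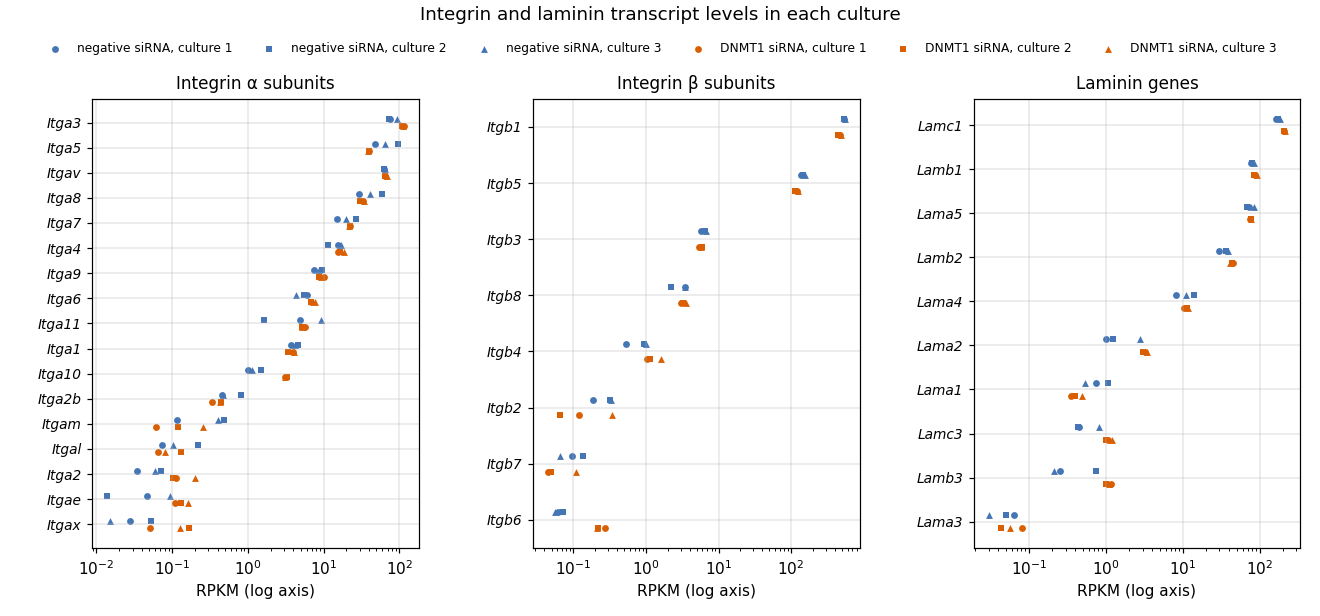
RPKM on a log axis (x) of each listed gene (y), ordered by the negative siRNA mean, with 1 point per culture. Itga3, Itgb1 and Lamc1 have the highest negative siRNA means in their panels, at 81.2, 541 and 172 RPKM, and the negative siRNA points are the more spread in most genes.

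Itga3 had the highest mean level of the α subunits in both groups, but Itga5 was above it in negative siRNA replicate 2 (97.3 and 74.1 RPKM). In negative siRNA cultures the mean of Itga3 was 81.2 RPKM, and Itga5 at 69.9 RPKM overlapped with it and with Itgav at 63.5 RPKM. Itga5 was below Itgav in replicate 1 (47.2 and 63.0 RPKM), above it in replicate 2 (97.3 and 62.1 RPKM) and at its level in replicate 3 (both 65.3 RPKM), so that its mean lay above that of Itgav through replicate 2. In DNMT1 siRNA cultures the order was Itga3 at 113, Itgav at 66.6, Itga5 at 39.3, Itga8 at 32.4 and Itga7 at 22.1 RPKM, and no neighbours among these overlapped. The 3 laminin-binding α subunits together had 96.6, 107 and 118 RPKM in negative siRNA and 145, 139 and 143 RPKM in DNMT1 siRNA cultures, without overlap. Their share of the RPKM of all 17 α subunits was 33.9% ± 3.29 in negative siRNA and 44.4% ± 0.51 in DNMT1 siRNA cultures (SD, n = 3; exact permutation test, two-sided p = 0.1, the smallest that 3 against 3 allows). The 4 RGD-binding α subunits had 140, 219 and 172 RPKM in negative siRNA, which overlapped with 139, 135 and 142 RPKM in DNMT1 siRNA cultures. Their share was 55.2% ± 5.57 and 43.3% ± 0.20, again without overlap (exact permutation p = 0.1), and Itga5 alone went from 21.6% to 12.3%. The shares are parts of a whole and so not independent of each other. Without negative siRNA replicate 2 the difference in the RGD-binding share was -8.64 percentage points instead of -11.9, and with the longest transcript as gene length it was -10.6.

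**Figure D4:**
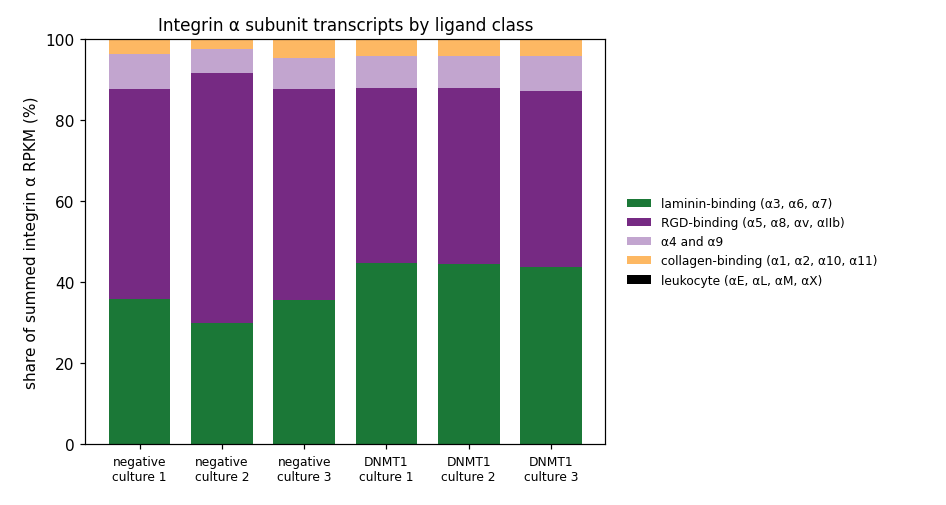
Share of the summed RPKM of the 17 integrin α genes (y axis, percent) held by each ligand class, in each culture (x axis). The laminin-binding share averages 33.9% in negative siRNA and 44.4% in DNMT1 siRNA cultures, and negative siRNA replicate 2 has the largest RGD-binding share.

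The cultures' laminin transcripts were mainly those of the α5, β1 and γ1 chains, which assemble into laminin-511. Lama5 had 18054, 16770 and 21022 normalized counts in negative siRNA and 18661, 19152 and 18816 in DNMT1 siRNA cultures. The groups overlapped, and the log2 fold change was 0.02 ± 0.09 SE (adjusted p = 0.906). Lama5 held 84.8% and 83.8% of the RPKM of the 5 α chains. Lama4, the α chain of endothelial and muscle basement membranes, was the next, at 12.5% and 12.1%. Its normalized counts were 2124, 3661 and 2859 in negative siRNA and 2736, 2934 and 3022 in DNMT1 siRNA cultures (log2 fold change 0.01 ± 0.17 SE, adjusted p = 0.9802).

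Lama2 and Lama1, which encode the muscle chain α2 and the early embryonic chain α1, had opposite log2 fold changes, and neither passed. Lama2 had 361, 443 and 987 normalized counts in negative siRNA and 1137, 1087 and 1212 in DNMT1 siRNA cultures. The DNMT1 siRNA cultures were all higher, but negative siRNA replicate 3 came close to them. The log2 fold change was 0.95 ± 0.33 SE (adjusted p = 0.0974), and without that culture it was 1.51 and passed. With all cultures it was also called with the exact test, with no filter and with a replicate block, but not by DESeq2 (adjusted p = 0.162), and the adjusted p ranged from 1.15e-15 to 0.243 over all alternatives. Lama1 had 156, 224 and 113 normalized counts in negative siRNA and 73.8, 84.5 and 103 in DNMT1 siRNA cultures, all lower (log2 fold change -0.92 ± 0.27 SE, adjusted p = 0.0574). With all cultures Lama1 was called in 3 of 6 fits with other settings, among them DESeq2 (adjusted p = 0.0123). It was also called in 1 of the 6 fits without 1 culture. The adjusted p ranged from 5.60e-05 to 0.190 over all alternatives. Lama3, the epithelial α3 chain, had at most 15.2 normalized counts in negative siRNA and 18.8 in DNMT1 siRNA cultures (log2 fold change 0.30 ± 0.41 SE, adjusted p = 0.670).

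The β and γ chains had positive log2 fold changes throughout, and Lamc3 was the gene called. Lamb1 had 16624, 16860 and 17998 normalized counts in negative siRNA and 18717, 18429 and 19637 in DNMT1 siRNA cultures (log2 fold change 0.14 ± 0.07 SE, adjusted p = 0.219). Lamb2, the β2 chain of mature and synaptic basement membranes, had 3888, 4839 and 5128 normalized counts in negative siRNA and 5990, 5848 and 5453 in DNMT1 siRNA cultures (log2 fold change 0.32 ± 0.10 SE, adjusted p = 0.0844). Neither passed, although no culture of one group reached the other. Lamb3, part of the epithelial laminin-332, had 36.2, 108 and 30.3 normalized counts in negative siRNA and 169, 144 and 157 in DNMT1 siRNA cultures. Negative siRNA replicate 2 lay apart from the other controls and nearer the DNMT1 siRNA cultures. The log2 fold change was 1.43 ± 0.43 SE (adjusted p = 0.0655), and 2.22 without that culture, where it passed. With all cultures it was also called by DESeq2 (adjusted p = 0.00343), by edgeR's exact test and with no filter, and the adjusted p ranged from 4.38e-09 to 0.177 over all alternatives.

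Lamc1, the γ chain of most laminins, was second to Itgb1 in level per length. It had 29341, 31093 and 32530 normalized counts in negative siRNA and 37052, 36804 and 38732 in DNMT1 siRNA cultures. All DNMT1 siRNA cultures were higher, and it rose by FDR, by 0.28 ± 0.07 SE on the log2 scale (adjusted p = 0.0449), under the fold limit. Its level was 172 ± 8.89 and 209 ± 5.84 RPKM (SD, n = 3). Lamc3 (chromosome 2, 31887291 to 31946539, plus strand) encodes γ3, a chain found at a few sites such as brain and retina. It had 58.9, 57.9 and 109 normalized counts in negative siRNA and 141, 133 and 160 in DNMT1 siRNA cultures, again without overlap (log2 fold change 0.95 ± 0.26 SE, edgeR adjusted p = 0.0497). The call was lost in 5 of the 6 fits without 1 culture, with adjusted p up to 0.174. With all cultures it was kept in 6 of 6 fits with other settings. Among these were DESeq2 (adjusted p = 0.00966) and the replicate block (edgeR adjusted p = 0.0375). An antisense gene, Gm13441, shares 6.27% of its exon length. Of the 10 laminin genes, 9 had a positive log2 fold change (median 0.29), and 1 was called. The summed γ chains had 164, 174 and 182 RPKM in negative siRNA and 207, 206 and 217 RPKM in DNMT1 siRNA cultures, and the summed α chains overlapped between the groups.

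The listed genes varied more among the negative siRNA than among the DNMT1 siRNA cultures. The SD of log2 CPM, counts scaled to library size, was larger in negative siRNA cultures in 28 of the 33 tested genes, beside 71.8% of all tested genes. Its median was 0.39 in negative siRNA and 0.10 in DNMT1 siRNA cultures over the 33 genes, and 0.17 and 0.10 over all tested genes. Negative siRNA replicates 1, 2 and 3 lay farthest from their group median in 11, 13 and 9 of the 33 genes. So no single culture lay farthest in most of the genes, a tally that does not weigh the size of the distance. Replicate 2 lay farthest in genes such as Itga5, Itga8, Itga11, Itgb8 and Lamb3, and replicate 3 in Lama2 and Lamc3. Over tested genes, replicate 2 differed more from replicates 1 and 3 than these from each other (chi-square per degree of freedom 61.7 and 55.6, against 29.7).

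Integrins act through cytoplasmic adaptors and kinases, and laminins bind other receptors and basement membrane proteins. Of 58 such partner genes, 55 were tested, 4 were called higher and 0 lower with edgeR, beside 4.26% and 2.23% of all tested genes. All 3 DNMT1 siRNA cultures lay above all negative siRNA cultures in 34.5% of the 55 and below in 18.2%, beside 18.3% and 17.7% of all tested genes. DESeq2 called 6 higher and 2 lower, beside 694 and 437 of all 15470 genes. Without the fold limit 9 passed higher and 4 lower (16.4% and 7.27%, beside 6.81% and 5.65% of all tested genes). The median log2 fold change was 0.12, against -0.0049 in all genes. The 4 called were all from the 25 tested adaptors. Itgb1bp2, or melusin, a muscle protein that binds the β1 tail, had 39.7, 42.7 and 33.4 normalized counts in negative siRNA and 229, 171 and 137 in DNMT1 siRNA cultures (log2 fold change 2.21 ± 0.22 SE, adjusted p = 0.00141). Nrap, a muscle protein of myofibril attachment sites, had 107, 170 and 152, against 420, 395 and 417 normalized counts (log2 fold change 1.52 ± 0.17 SE, adjusted p = 0.00199). These muscle proteins rose in the same libraries in which the summed cardiomyocyte markers were higher, and the part of these markers' cells in the result was not tested. Dab2, an adaptor of integrin endocytosis, and Parvb, which links integrin-linked kinase to actin, rose by log2 fold changes of 0.63 ± 0.06 and 0.61 ± 0.12 (SE; adjusted p = 0.00125 and 0.0178). Kank1, which binds talin, and Tln2, a talin of striated muscle, passed by FDR under the fold limit, at 0.55 ± 0.09 and 0.45 ± 0.10 (SE; adjusted p = 0.00932 and 0.0219).

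The 6 partner genes grouped as other laminin receptors and proteins associated with them were Dag1, Bcam, Sgca, Sgcb, Sgcd and Cd151. All 6 log2 fold changes were positive, beside 7631 of the 15470 tested genes. Dag1, which encodes dystroglycan, had 15671, 17006 and 14876 normalized counts in negative siRNA and 20697, 19886 and 20658 in DNMT1 siRNA cultures (log2 fold change 0.36 ± 0.07 SE, adjusted p = 0.0193), and so rose by FDR under the fold limit. Bcam, a receptor of the laminin α5 chain, and Sgcb, a sarcoglycan of the same complex as dystroglycan, also passed by FDR, at 0.43 ± 0.11 and 0.54 ± 0.07 (SE). Nid1, which links laminin γ1 to collagen IV, fell from 21004, 21529 and 20720 to 15393, 15487 and 17340 normalized counts (log2 fold change -0.39 ± 0.07 SE, adjusted p = 0.0149). The kinases Src and Fyn, with log2 fold changes of -0.38 and -0.34, and the adaptor Lims1, at -0.32, also fell by FDR under the fold limit. Fn1, which encodes fibronectin, was at 1806 ± 114 RPKM in negative siRNA and 1570 ± 65.1 RPKM in DNMT1 siRNA cultures (SD, n = 3) and did not pass (log2 fold change -0.20, adjusted p = 0.183).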

How the data were processed

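RNA-Seq counts of 6 libraries, 3 negative siRNA and 3 DNMT1 siRNA cultures, were used. The authors cleaned reads after FastQC, used TopHat2 to align them to mm10 and HTSeq to count them over Ensembl genes, and the deposited values are raw counts, not normalized. Versions are not given in the sources used here. The counter's totals of unassigned reads were left out of libraries and tests. Counts were fitted in R 4.3.3 with edgeR 4.0.16 (TMM, filterByExpr with a minimum count of 10 and total of 15, quasi-likelihood F test, no block), with Benjamini-Hochberg adjustment over 15470 genes. Calls required an FDR under 0.05 with a fold change over 1.5. The standard error is the absolute log2 fold change over the square root of F. RPKM was computed here from GENCODE M21 exon lengths (GRCm38), an annotation newer than that of the authors, which holds 42548 of the 43629 genes. Effective library sizes were used for RPKM and CPM.

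The genes, partner and marker lists and tests were chosen with earlier results of these data known. Values are given for every listed gene, for called partners and for other partners past the FDR, and the latter were added after their values were seen. Alternatives were DESeq2 1.42.0, RLE, no filter, 10 counts in every culture, edgeR's exact test, a replicate block, no fold limit and each culture left out. Replicate pairs differed by more than sampling noise (chi-square per degree of freedom 2.82 to 61.7). Nothing says that cultures came from separate litters, so p values measure the spread between these cultures, which may be technical. With 3 against 3, an exact permutation test cannot go below 0.1. Floors and counts cover counting error only. The scripts were tested on simulated counts.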

Additional observations from a re-analysis of the deposited data

How the results depend on the processing

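Of 386 comparisons of a gene with an alternative, 15 reversed the sign, and 26 of 33 genes never reversed. Listed genes called higher and lower numbered 3 and 1, against 7 and 3 with no filter, 6 and 2 with the exact test and 5 and 2 with no fold limit. DESeq2 called 4 higher and 2 lower, and the replicate block 4 and 0. Deviations of same-numbered cultures from their group means were hardly correlated (0.01, -0.02 and 0.03), but with 3 cultures per group a weak pairing could go unseen. Under the block Itga5 had an edgeR adjusted p of 0.0587. Without 1 culture, 2 to 5 were called higher and 0 to 2 lower. For partner genes, with 4 and 0 called, no filter, DESeq2 and the exact test each called 2 lower, no fold limit 9 and 4, and leaving out a culture 3 to 7 and 0 to 1. Over all genes, 659 and 345 became 994 and 701 with no filter and 1054 and 874 with no fold limit. They became 824 and 460 with the exact test, 694 and 437 with DESeq2 and 513 and 285 with the replicate block. With 10 counts required in every culture they were 619 and 319. Without 1 culture they ranged from 255 to 823 and from 112 to 472. The tests without a DNMT1 siRNA culture called the fewest, which leaves 2 of the shallower libraries. With no filter, 31775 genes were tested and their median log2 fold change was 0.11, whereas Itga11, Lama4 and Lama5 were at -0.0043, -0.023 and -0.0094. Leaving out cultures moved Itga7 from -0.083 to 0.34, Itga11 from -0.40 to 0.71, Itgb8 from -0.072 to 0.21, Itgal from -0.85 to 0.084, Lama3 from -0.0069 to 0.48, Lama4 from -0.17 to 0.22 and Lama5 from -0.050 to 0.12. The cause was not tested. The share difference of laminin-binding α subunits ranged from 8.66 to 11.5 and of RGD-binding ones from -13.5 to -8.64 percentage points. Genes of few counts, such as the leukocyte integrins, have wide errors at this depth.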
